A study of Homo sapiens with 27 samples.

Results

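The genes described here are the effectors at the nuclear end of the Hippo pathway. They are the coactivators YAP1 and WWTR1 (whose protein is TAZ), the transcription factors TEAD1, TEAD2, TEAD3 and TEAD4, the TEAD-binding cofactors VGLL1 and VGLL3, and the secreted proteins CTGF and CYR61, which are named CCN2 and CCN1 in newer gene catalogues. They were chosen by name from knowledge of the pathway, with earlier results of these data known. All 10 were found among the 34584 genes to which deposited transcripts could be matched in GENCODE 29. Messenger RNA was measured in 27 libraries from 9 human cell lines, with 3 biological replicates of each line per the series' design text. No line was treated, and the question the design poses is how the lines differ.

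The lines are SK-Mel 24 and SK-Mel 28, labelled skin and known as melanoma lines, U2-OS, labelled bone and known as an osteosarcoma line, and A549, labelled lung and known as a lung carcinoma line. The others are U251, labelled brain and known as a glioma line, Caco2, labelled colon and known as a colon carcinoma line, HepG2, labelled liver and spelled Hep2G in the sample titles, BJ, labelled epithelial and known as a fibroblast line, and RT4, labelled kidney and known as a bladder tumour line. Serum was 15% for SK-Mel 24 and 10% for the other lines. The basal medium was DMEM for A549 and BJ, McCoy for RT4 and U2-OS, and EMEM for the rest, so that between lines of different media the line and its medium cannot be told apart. In any comparison with SK-Mel 24, the line and its serum level cannot be told apart either. Each tissue label is represented by 1 cultured line, or 2 for skin, and in a bulk library fewer expressing cells and less RNA per cell cannot be told apart.

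In the Hippo pathway a kinase cascade of MST and LATS enzymes phosphorylates YAP and TAZ and holds them out of the nucleus when cells are crowded or attached weakly. YAP and TAZ that escape this bind TEAD factors on DNA, since they have no DNA-binding domain of their own, and switch on genes of growth, adhesion and matrix, of which CTGF and CYR61 are the best known. VGLL proteins bind TEAD factors on a surface that overlaps the one YAP and TAZ use.

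Marker genes were compared with the labels. All 6 fibroblast markers were at 10 TPM or more in BJ, while 4 of 6 epithelial markers (EPCAM, CDH1, ESRP1 and CLDN4) were under 1 TPM there. TPM is a level corrected for transcript length and scaled to 1 total in every library. All 6 urothelial markers reached 10 TPM in RT4, and all 6 kidney tubule markers were under 1 TPM. All 7 melanocyte markers reached 10 TPM in SK-Mel 28 but only 3 of 7 in SK-Mel 24, where TYR and DCT were under 1 TPM. All 6 hepatocyte markers reached 10 TPM in HepG2. In the other lines 5 of 7 lung markers (A549), 3 of 6 bone markers (U2-OS), 2 of 6 astroglial markers (U251) and 2 of 6 enterocyte markers (Caco2) were under 1 TPM. Libraries held 15597117 to 32583547 estimated counts (reads shared out among transcripts). The HepG2 libraries stood apart: mitochondrial genes took 71.1%, 33.8% and 32.6% of their counts, against 0.928% to 5.72% in the other 24 libraries. Of the TPM, mitochondrial genes took 79.0%, 42.3% and 41.8% in HepG2 and at most 9.97% in the other libraries. TPM of every other gene in HepG2 is lowered by that TPM share. HepG2 levels of YAP1, WWTR1, the TEAD genes, CTGF and CYR61 are therefore also given rescaled without mitochondrial transcripts. Levels of all other genes in HepG2 are as deposited and are lowered in this way. Differences are taken from a fit to the counts of all 27 libraries (edgeR's quasi-likelihood test, with TMM scaling and Benjamini-Hochberg adjustment over all 17220 genes tested).

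Sequences that bear on the results are shown first. The promoter of CTGF is shown because it holds several copies of the TEAD recognition motif. The window is the 250 bases before the gene start in the RefSeq table, at chr6:131951373-131951622 on the minus strand of GRCh38.p14, with each GGAATG in capitals.
CTGF promoter: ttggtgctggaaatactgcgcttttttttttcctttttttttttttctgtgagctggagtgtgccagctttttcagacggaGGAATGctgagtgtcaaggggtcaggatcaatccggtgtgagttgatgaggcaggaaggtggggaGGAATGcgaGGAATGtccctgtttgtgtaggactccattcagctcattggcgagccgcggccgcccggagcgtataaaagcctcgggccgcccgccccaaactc

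The search covered GGAATG and its reverse complement CATTCC, with overlaps allowed. In the CTGF window the 3 matches begin at -169, -104 and -95 from the gene start. Of 35116 windows of the same length in the table, 11.9% hold at least 1 match and 29 (0.0826%) hold 3 or more. Windows were found for 7 of the 10 genes. YAP1 has 1 match, at -162, and VGLL1 has 1, at -157. The windows of WWTR1, TEAD2, TEAD3 and VGLL3 hold none. A match is a run of letters and says nothing of whether a factor is bound there.

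Exons that split the transcripts of YAP1, TEAD3 and TEAD4 are shown because the share of RNA without them set HepG2 apart from the other lines. Sequences are coding bases from GENCODE 29 transcripts, 5′ to 3′, with GRCh38 coordinates. YAP1 exon 4 encodes the second WW domain, a module that binds proline-rich partners and is named for its tryptophans; the 2 in-frame tgg codons are in capitals. TEAD3 exons 3 and 4 lie in the TEA domain, which binds DNA. In TEAD4 exon 3 the capitals mark the codon annotated as the start, which is not an atg.
YAP1 exon 4, chr11:102186018-102186131, plus strand: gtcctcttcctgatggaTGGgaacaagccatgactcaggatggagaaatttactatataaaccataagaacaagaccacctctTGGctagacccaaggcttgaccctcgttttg
TEAD3 exon 3, chr6:35484560-35484624, minus strand: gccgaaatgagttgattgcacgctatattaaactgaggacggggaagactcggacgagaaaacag
TEAD3 exon 4, chr6:35480312-35480374, minus strand: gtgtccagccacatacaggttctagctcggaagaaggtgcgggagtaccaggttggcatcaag
TEAD4 exon 3, coding part at chr12:2994767-2994992, plus strand: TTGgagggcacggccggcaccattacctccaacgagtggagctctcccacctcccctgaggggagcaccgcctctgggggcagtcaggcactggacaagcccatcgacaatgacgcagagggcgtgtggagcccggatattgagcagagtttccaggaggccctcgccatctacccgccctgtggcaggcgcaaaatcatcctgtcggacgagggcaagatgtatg

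The 10 genes differed in how far they spread over the lines. All 10 passed the F test over the 9 lines at an adjusted p under 0.05 (edgeR), as did 98.3% of all genes tested, so passing it sets nothing apart. The pairs of lines carry more. A pair was called where the adjusted p was under 0.05 and the difference at least 2-fold. By this rule 43.3% of all gene and pair combinations were called. YAP1 was called in 6 of its 36 pairs and VGLL1 in 15, the other 8 genes in 20 (TEAD1) to 31 (VGLL3). VGLL1 had 0 counts in 6 lines and 3 counts in SK-Mel 28, so pairs among these lines had almost nothing to compare. Its 15 called pairs were all of those with RT4 or Caco2, and the number does not measure how far it spread. YAP1 thus had the fewest called pairs of the 10, well under the background, and VGLL3, CTGF and CYR61, with 30 or 31 each, the most.

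**Figure D1:**
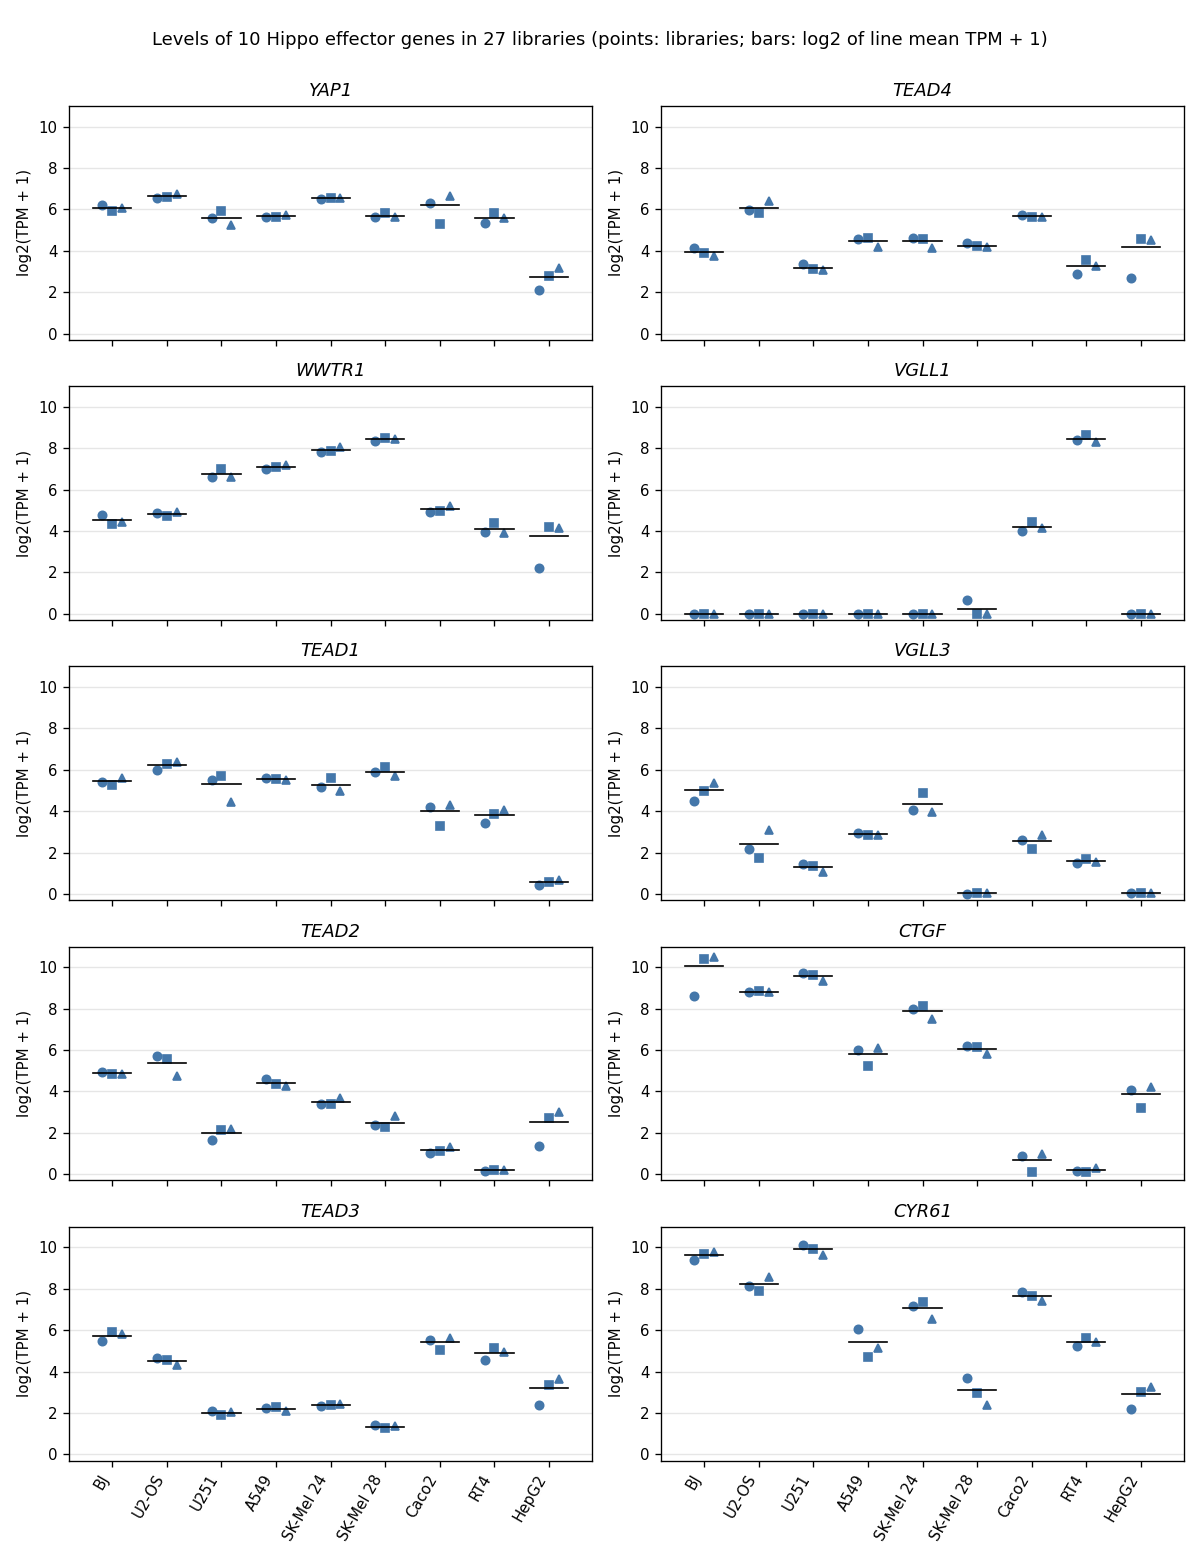
Level of each gene in each of 27 libraries, as log2(TPM + 1) on the vertical axis, with the 9 lines on the horizontal axis; circles, squares and triangles are libraries 1, 2 and 3 of a line and bars the log2 of the line's mean TPM + 1. YAP1 lies in a narrow band outside HepG2, VGLL1 rises above 1 TPM only in Caco2 and RT4, and CTGF is below 1 TPM in all libraries of those same lines.

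YAP1 (chromosome 11, 102110461 to 102233423, plus strand), the better-known coactivator, was at 47.7 to 98.6 TPM in 8 lines and lower in HepG2. The U2-OS libraries had 92.3, 97.4 and 106 TPM, and the SK-Mel 24 libraries 89.3, 94.5 and 92.1. In Caco2 they had 78.0, 38.7 and 101 TPM, and in HepG2 3.35, 5.82 and 7.87. Caco2 covered most of the range of the other lines by itself, and its second library was the low one. HepG2 lay below all other 24 libraries.

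In 5 of the 6 called YAP1 pairs HepG2 was the lower line, and the other was BJ over U251 (1.04 ± 0.23 on the log2 scale, adjusted p = 0.000439). U2-OS exceeded HepG2 by 1.27 ± 0.23 (log2 difference ± SE; adjusted p = 2.71e-05, edgeR) and BJ exceeded it by 1.64 ± 0.23 (adjusted p = 9.27e-07). Rescaled without mitochondrial transcripts, HepG2 had 13.2 ± 2.95 TPM (SD, n = 3), still the lowest of the 9 lines. The TPM of U2-OS was 17.4 times that of HepG2, more than the fitted difference, which rests on counts and another scaling. Among the other lines, the neighbours in order of level did not differ at an adjusted p under 0.05, except BJ (66.4 TPM) over SK-Mel 28 (50.9 TPM), with a difference of 0.97 ± 0.23 (adjusted p = 0.000727). Without the second Caco2 library 10 pairs were called in place of 6, and a test against a 2-fold change itself called 2.

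WWTR1 (chromosome 3, 149517235 to 149736714, minus strand), which encodes TAZ, was spread much more widely. SK-Mel 28 libraries held 322, 363 and 349 TPM and SK-Mel 24 libraries 223, 232 and 266. A549 had 125, 136 and 143 TPM, and U251 98.2, 128 and 97.9. All libraries of these 4 lines lay above all libraries of the other lines, of which the highest was a Caco2 library at 36.4 TPM.

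Caco2 had 32.1 ± 3.69 TPM (SD, n = 3), U2-OS 27.7 ± 2.08, BJ 22.2 ± 3.97 and RT4 16.0 ± 3.27. HepG2 had 12.5 ± 7.69 TPM as deposited and 25.3 ± 6.93 when rescaled. Against the mean of the other 8 lines, WWTR1 was higher in SK-Mel 28 (2.56 ± 0.13 on the log2 scale), SK-Mel 24 (1.95 ± 0.13), A549 (1.21 ± 0.14) and U251 (1.14 ± 0.14), and lower in RT4 (-2.16 ± 0.19), U2-OS (-1.92 ± 0.19) and Caco2 (-1.08 ± 0.18), all with adjusted p of 9.71e-06 or less (edgeR). The step from SK-Mel 28 to SK-Mel 24 passed the adjusted p (0.0372) but was under 2-fold (0.55 ± 0.21).

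The order of U2-OS and BJ turned with the measure. U2-OS was above BJ in TPM but below it in the fit (-0.89 ± 0.21, adjusted p = 0.000957, edgeR), and their libraries overlapped in TPM. Much of the WWTR1 TPM was assigned to a short transcript annotated for nonsense-mediated decay, WWTR1-205, which took 38.9 ± 5.21% of it in U2-OS (SD, n = 3) and 16.1 ± 16.7% in BJ. In the 7 other lines it took 28.5 to 47.3% on average. Its part in the turned order was not tested.

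The balance between the coactivators therefore differed between lines. WWTR1 made up 87.1 ± 0.59% of the summed YAP1 and WWTR1 TPM in SK-Mel 28 (SD, n = 3), 73.0 ± 0.88% in A549, 72.3 ± 1.74% in SK-Mel 24 and 69.6 ± 2.61% in U251. In U2-OS it made up 21.9 ± 1.43%, in BJ 24.9 ± 1.40%, in RT4 25.0 ± 2.11% and in Caco2 32.7 ± 9.81%. No library of the first 4 lines was under 50%, and no library of the second 4 was over it. With protein-coding transcripts alone the mean shares were lower. They were 81.9% in SK-Mel 28, 62.6% in A549, 65.6% in SK-Mel 24 and 63.8% in U251. In U2-OS, BJ, RT4 and Caco2 they were 16.2%, 22.1%, 17.0% and 22.5%. A share within a library does not move with its mitochondrial content. In HepG2 the libraries gave 52.0%, 74.9% and 67.8%, but the mean of 64.9% fell to 48.6% when estimated counts replaced TPM, so which coactivator led there was not settled. Summed over all their transcripts, the coactivators were highest in SK-Mel 28, at 396 ± 24.3 TPM, and lowest outside HepG2 in RT4, at 63.8 ± 10.7 TPM.

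**Figure D2:**
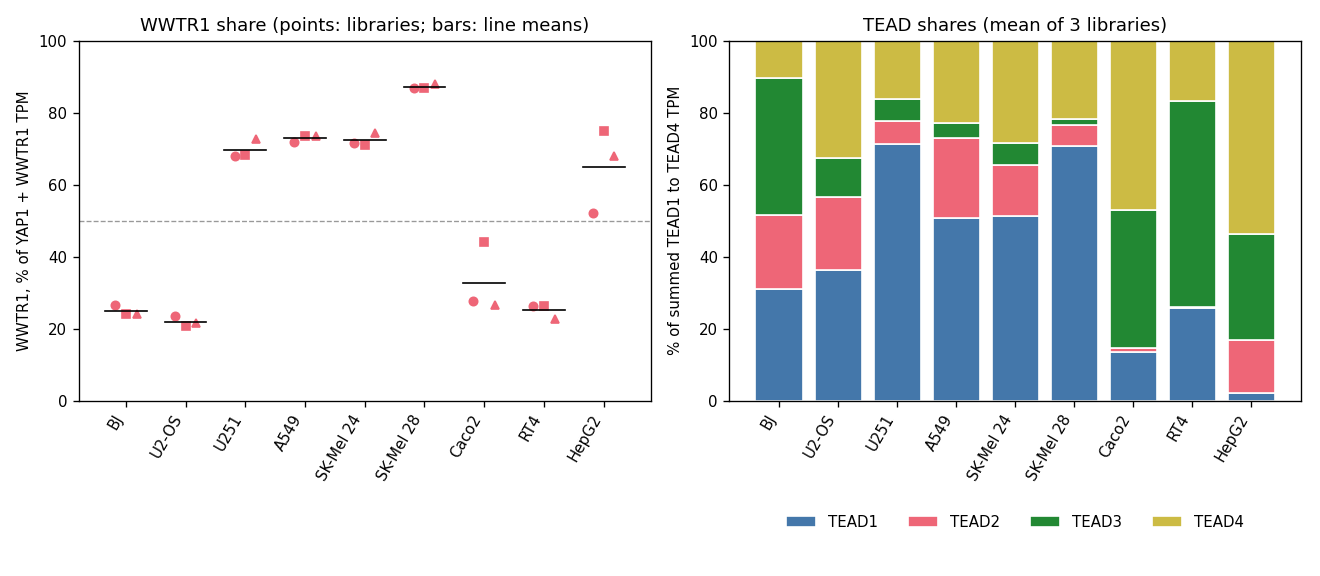
Left, WWTR1 as a percentage of the summed TPM of YAP1 and WWTR1 in each library (points) with line means (bars), and a dashed line at 50%; right, stacked mean percentages of TEAD1, TEAD2, TEAD3 and TEAD4 in their summed TPM. U251, A549 and the SK-Mel lines sit above the dashed line with TEAD1 as the largest block, while BJ, RT4, Caco2 and HepG2 have larger TEAD3 or TEAD4 blocks. HepG2 also lies above the dashed line, and U2-OS lies below it with TEAD1 as its largest block.

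The TEAD factors share a DNA-binding domain, and each line had its own mixture of them. TEAD1 (chromosome 11, 12674591 to 12944483, plus strand) was at 38.0 to 74.1 TPM in 6 lines, at 14.9 ± 5.26 in Caco2 and at 12.9 ± 3.08 in RT4 (SD, n = 3). The HepG2 libraries had 0.369, 0.50 and 0.605 TPM, 1.22 ± 0.47 when rescaled. No other library was under 8.88 TPM. HepG2 was lower than each of the 8 other lines, from RT4 and Caco2 over HepG2 by 2.80 ± 0.28 and 2.78 ± 0.28 to SK-Mel 28 by 4.58 ± 0.30 (all adjusted p of 9.36e-09 or less, edgeR).

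Among the upper 6 lines TEAD1 differed by less than 2-fold, at most by 0.78 ± 0.26 (log2), which was SK-Mel 28 over SK-Mel 24 (adjusted p = 0.015, edgeR). U2-OS (62.9, 76.0 and 83.5 TPM) and SK-Mel 28 (59.1, 68.5 and 50.7) did not differ at this precision (-0.04 ± 0.26, adjusted p = 0.915). U251 was uneven, at 44.1, 51.0 and 20.6 TPM. Over all lines, 5 of the 8 neighbouring steps in the order of TPM did not pass the adjusted p.

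TEAD2 (chromosome 19, 49340595 to 49362457, minus strand) fell in steps from U2-OS to RT4. U2-OS libraries had 50.7, 46.8 and 25.7 TPM, and BJ libraries 29.8, 27.3 and 27.5. A549 followed at 20.4 ± 2.92 TPM (SD, n = 3) and SK-Mel 24 at 10.2 ± 1.25. The upper end overlapped, because the third U2-OS library lay below all 3 of BJ, and these lines did not differ in the fit (-0.05 ± 0.26, adjusted p = 0.878, edgeR).

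SK-Mel 28 had 4.64 ± 1.10 TPM of TEAD2, U251 3.00 ± 0.78 and Caco2 1.24 ± 0.20. In RT4 the libraries had 0.121, 0.138 and 0.144 TPM, 15.6 estimated counts over all 3. RT4 was lower than each other line and lay 3.02 ± 0.41 (log2) below Caco2, the next one up (adjusted p = 8.07e-07). In HepG2 TEAD2 was at 4.69 ± 2.80 TPM as deposited and 9.66 ± 2.27 rescaled, rank 5 on both scales. In the fit HepG2 exceeded the other lines' mean by 1.83 ± 0.18 (adjusted p = 2.14e-09), a mean lowered by RT4. U2-OS exceeded HepG2 by 0.81 ± 0.26 (adjusted p = 0.00867, edgeR) and BJ exceeded it by 0.86 ± 0.26 (adjusted p = 0.00587). A549 did not differ from HepG2 (0.09 ± 0.26, adjusted p = 0.783). HepG2 was called over SK-Mel 24, SK-Mel 28, U251, Caco2 and RT4, although SK-Mel 24 was above HepG2 on both TPM scales. TEAD2 overlaps CD37 and DKKL1 on the opposite strand, which reached 21.5 and 1.01 TPM at most; the library kit marks strand, but whether the counting used it is not given in the sources used here.

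TEAD3 (chromosome 6, 35473597 to 35497076, minus strand) split the lines into a high and a low set. BJ libraries had 43.0, 58.3 and 55.7 TPM, Caco2 libraries 44.9, 32.1 and 47.8, and RT4 libraries 22.5, 34.3 and 29.6. U2-OS had 21.9 ± 2.82 TPM (SD, n = 3), and HepG2 8.29 ± 3.68 as deposited and 18.6 ± 2.11 rescaled. All libraries of SK-Mel 24 (4.23 ± 0.19), A549 (3.63 ± 0.32), U251 (3.02 ± 0.26) and SK-Mel 28 (1.54 ± 0.12) were at 4.44 TPM or less. Of the high set, only the HepG2 library at 4.21 TPM came that low.

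Each line of the low set was called lower than the mean of the other 8, from -1.69 ± 0.13 in SK-Mel 24 to -3.25 ± 0.15 in SK-Mel 28 (log2; adjusted p of 4.48e-11 or less, edgeR). BJ (2.77 ± 0.09), Caco2 (2.14 ± 0.09), RT4 (1.77 ± 0.09) and HepG2 (1.57 ± 0.10) were called higher. The 4 lines lowest for TEAD3 by TPM were the 4 highest for WWTR1.

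TEAD4 (chromosome 12, 2959330 to 3040673, plus strand) was the least spread of the 4 by level, with a ratio of 8.25 between its highest and lowest line mean. Against TEAD1 this rests on HepG2. Outside HepG2, TEAD1 ran from 12.9 to 74.1 TPM and TEAD4 from 8.07 to 66.6. TEAD1 also had fewer called pairs, 20 against 23. U2-OS libraries had 61.3, 55.4 and 83.0 TPM and Caco2 libraries 53.0, 49.2 and 49.0. These lines did not differ in the fit (0.11 ± 0.20, adjusted p = 0.659), although their libraries did not overlap in TPM. A549, SK-Mel 24 and SK-Mel 28, at 21.1, 21.0 and 18.1 TPM, were neighbours whose steps did not pass (adjusted p of 0.77 and 0.663, edgeR), and so were RT4 and U251, at 8.51 and 8.07 TPM (adjusted p = 0.224).

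HepG2 is the line whose place depends on the scale. Its TEAD4 libraries had 5.52, 23.1 and 22.3 TPM, rank 6 of the 9 lines, and 34.9 ± 7.54 TPM (SD, n = 3) when rescaled, rank 3. In the fit HepG2 exceeded the other lines' mean by 1.49 ± 0.13 (log2; adjusted p = 3.98e-10, edgeR), about as much as U2-OS (1.45 ± 0.13) and Caco2 (1.33 ± 0.13). Over the 10 genes, 64.7% of the 360 gene and pair combinations were called, and 8 of these went against the order of deposited TPM, all 8 with HepG2 as 1 of the lines. Rescaling did not remove all of these conflicts. WWTR1 was called higher in HepG2 than in U2-OS, though rescaled TPM were 25.3 and 28.5. TEAD2 was called higher in HepG2 than in SK-Mel 24, though rescaled TPM were 9.66 and 10.5. By deposited TPM, 5 of the 10 genes (YAP1, WWTR1, TEAD1, VGLL3 and CYR61) had their lowest level in HepG2 (3 of the 10 without the first HepG2 library), and by TPM rescaled without mitochondrial transcripts 2 (YAP1 and TEAD1). The share of all genes that were lowest in HepG2 is not given here, so these counts set nothing apart about the 10 genes.

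As shares of the summed TEAD TPM, TEAD1 led in U251 (71.2 ± 10.2%, SD, n = 3), SK-Mel 28 (70.8 ± 3.74%), SK-Mel 24 (51.3 ± 5.00%), A549 (50.8 ± 2.74%) and, by a small margin over TEAD4 at 32.6 ± 6.07%, U2-OS (36.3 ± 4.20%). TEAD3 led in RT4 (57.3 ± 2.24%) and in BJ (38.1 ± 4.92%, with TEAD1 at 30.9 ± 2.93%). TEAD4 led in Caco2 (47.1 ± 6.09%, with TEAD3 at 38.2 ± 2.91%) and HepG2 (53.8 ± 6.34%). TEAD1 made up 1.98 ± 1.03% of the HepG2 sum and TEAD2 0.272 ± 0.04% of the RT4 sum. In U2-OS, BJ and Caco2 the lead is within reach of the spread between libraries. The share of TEAD1 was higher in all 9 lines when estimated counts, which are not corrected for length, replaced TPM, and the leader then changed in 4 lines. By counts TEAD1 led in BJ (59.8%) and RT4 (51.8%), and TEAD3 in Caco2 (38.8%, with TEAD1 at 37.2%) and HepG2 (39.8%, with TEAD4 at 36.3%). The summed TEAD level was highest in U2-OS, at 204 ± 6.44 TPM, against 50.3 ± 10.4 in RT4 and 30.5 ± 16.3 in HepG2 as deposited.

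VGLL1 (chromosome X, 136532152 to 136556807, plus strand) was found in 2 of the 9 lines above 1 TPM. RT4 libraries had 333, 400 and 314 TPM, and Caco2 libraries 14.8, 20.6 and 16.6. One SK-Mel 28 library had 0.573 TPM, from 3 estimated counts in that line, and the remaining lines had no count in any library. RT4 exceeded Caco2 by 4.63 ± 0.29 (log2; adjusted p = 2.34e-08, edgeR). Against a floor of 3 counts over the libraries of a line, the RT4 level was at least 2856-fold higher than in HepG2 and at least 8343-fold higher than in U2-OS, the ends of the range over the 6 lines at 0. The Caco2 level was at least 112-fold to at least 328-fold higher than in the same lines. Counts in RT4 came to 18940 over the 3 libraries, so VGLL1 was there the most abundant of the 10 by level, above YAP1, CYR61 and TEAD3.

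VGLL3 (chromosome 3, 86876388 to 86991119, minus strand) was highest in BJ, with 21.8, 30.7 and 40.7 TPM, and next in SK-Mel 24, with 15.5, 28.7 and 14.4. BJ was called over all 8 other lines, the closest being SK-Mel 24 (1.34 ± 0.44, adjusted p = 0.0129, edgeR), though 1 library of SK-Mel 24 was within the BJ range. A549 (6.38 ± 0.33 TPM, SD, n = 3), Caco2 (4.95 ± 1.41) and U2-OS (4.41 ± 2.70) came next, then RT4 at 1.99 ± 0.19 and U251 at 1.43 ± 0.32, and none of the 4 steps between these neighbours passed (adjusted p from 0.0951 to 0.982, edgeR). The ends of this group did differ, with A549 over U251 by 2.00 ± 0.45 (adjusted p = 0.000713, edgeR). VGLL3 was nearly absent from SK-Mel 28 (0.014, 0.037 and 0.038 TPM) and from HepG2 (0.047, 0.016 and 0.015), with 8.15 and 25.4 estimated counts over 3 libraries.

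VGLL1 and VGLL3 did not follow one pattern. RT4, with the most VGLL1, had VGLL3 at rank 6, and BJ, with the most VGLL3, had no VGLL1 count. Among the other VGLL genes, VGLL4, a repressor that competes with YAP for TEAD, was present in all 9 lines. It ranged from 2.26 ± 0.95 TPM (SD, n = 3) in HepG2, as deposited, to 43.8 ± 1.91 in U251.

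CTGF (chromosome 6, 131948176 to 131951373, minus strand) is a matricellular protein whose promoter is the one shown above. BJ libraries had 391, 1330 and 1434 TPM and U251 libraries 843, 800 and 643. U2-OS had 441, 462 and 446 TPM, and SK-Mel 24 254, 282.1 and 180. The first BJ library lay below every U2-OS and U251 library, and no step between neighbours from BJ down to SK-Mel 24 passed the adjusted p. Lines further apart did differ. BJ exceeded U2-OS by 1.77 ± 0.46 (adjusted p = 0.00169, edgeR) and SK-Mel 24 by 2.50 ± 0.47 (adjusted p = 8.57e-05). U251 exceeded SK-Mel 24 by 1.71 ± 0.45 (adjusted p = 0.00316).

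SK-Mel 28 followed at 66.1 ± 9.04 TPM (SD, n = 3), A549 at 55.4 ± 16.9 and HepG2 at 13.7 ± 4.85, or 39.3 ± 31.0 when rescaled. In Caco2 the libraries had 0.841, 0.0658 and 0.987 TPM and in RT4 0.120, 0.0725 and 0.225, which is 71.0 and 19.0 estimated counts over 3 libraries. All 6 of these libraries were under 1 TPM, and the lowest of the other 21, a HepG2 library, had 8.19 TPM. Against the mean of the other 8 lines the log2 difference was -7.06 ± 0.59 in Caco2 (adjusted p = 1.52e-10, edgeR) and -9.14 ± 0.67 in RT4 (adjusted p = 1.42e-11).

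CYR61 (chromosome 1, 85580761 to 85583962, plus strand), the close relative of CTGF, did not show that gap. U251 libraries had 1123, 965 and 782 TPM, BJ libraries 662, 825 and 869, and U2-OS libraries 284, 234.1 and 383. Caco2 libraries had 230, 198 and 170 TPM and RT4 libraries 37.1, 48.1 and 41.4. Caco2 was thus in the upper part of the order for CYR61 and was called higher against the other 8 lines (1.07 ± 0.21, adjusted p = 0.000109), while RT4 was lower (-1.27 ± 0.26, adjusted p = 0.000189). U251 and BJ did not differ in the fit (-0.03 ± 0.31, adjusted p = 0.97, edgeR). SK-Mel 24 had 132 TPM, A549 41.8 and SK-Mel 28 7.76, and HepG2 6.45 as deposited and 14.7 when rescaled. SK-Mel 28 was called lower than every line, HepG2 included (-1.74 ± 0.33, adjusted p = 4.57e-05, edgeR).

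Set against each other, the log2 ratio of CTGF to CYR61 TPM was -8.10, -11.6 and -7.43 in the Caco2 libraries and -8.27, -9.37 and -7.53 in those of RT4. In the other 21 libraries it lay between -0.76 and 3.72. SK-Mel 28 was at the upper end (2.59, 3.33 and 3.72). Caco2 and RT4 are also the lines with VGLL1, and their TEAD2 levels were the lowest of the 9.

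**Figure D3:**
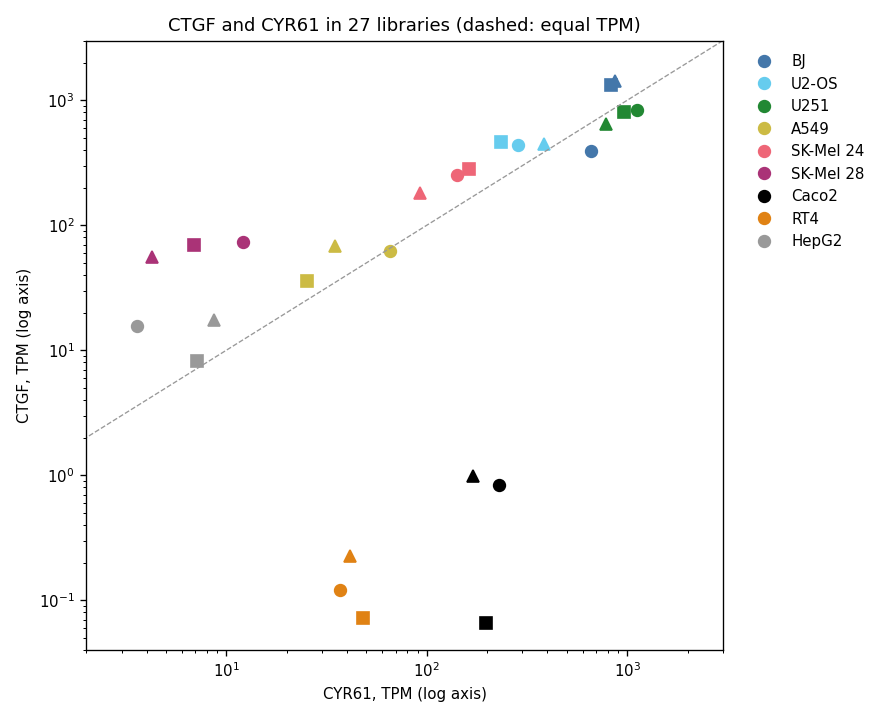
CTGF against CYR61 in each of 27 libraries, in TPM on logarithmic axes, with 1 colour per line, circles, squares and triangles for libraries 1, 2 and 3, and a dashed line of equal levels. The Caco2 and RT4 libraries lie far below the dashed line at CTGF under 1 TPM, and the SK-Mel 28 libraries lie furthest above it.

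Across the 9 line means of log2(CPM + 1), described without a test because only 9 points are available and the lines also differ in medium, CTGF and CYR61 had a Pearson coefficient of 0.42. Against CTGF, TEAD2 had 0.71 and VGLL1 -0.84, the latter resting on Caco2 and RT4. TEAD1 had 0.41 with CTGF and 0.83 without HepG2. Caco2 and RT4 weigh heavily in the TEAD coefficients too. They had the lowest line means of CTGF (0.83 and 0.30) and TEAD2 (1.44 and 0.27). Outside HepG2 they also had the lowest of TEAD1 (6.25 and 6.28). Coefficients without Caco2 and RT4 are not given here, so whether either TEAD gene followed CTGF among the remaining lines is not shown. Neither coactivator followed the 2 secreted genes closely: YAP1 had -0.02 with CTGF and 0.54 with CYR61, and WWTR1 0.36 and -0.30. The line with the most coactivator RNA, SK-Mel 28, was near the bottom for CYR61. Of the 45 pairs among the 10 genes, WWTR1 and TEAD3 had the coefficient furthest from 0, at -0.89 with HepG2 and without it. YAP1 and VGLL3 had the highest positive one, 0.81, which was 0.74 without HepG2, where TEAD1 and CTGF, YAP1 and TEAD3 (0.82) and TEAD1 and TEAD2 (0.81) were above it.

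Among 11498 protein-coding genes that reached 10 TPM in some line, the ones whose profile over the 9 lines was most like that of a gene were listed by Pearson coefficient. For CTGF they were DIXDC1 (0.98), CDH2 (0.97), which encodes N-cadherin, and FLRT2 (0.97). For CYR61 they were GAS6 (0.93), a ligand of the receptor AXL, GADD45B (0.93) and COL6A1 (0.93). CDH2 had 0.118 TPM in Caco2 and 0.389 in RT4 against 163 in BJ, and so shared the gap of CTGF. For VGLL1 they were TAC3 (0.99), SOWAHB (0.99) and PRRG2 (0.99), all highest in RT4 and second in Caco2. For VGLL3 they were KCTD11 (0.94), COL5A2 (0.93), a collagen chain, and CAMK2D (0.92).

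For YAP1 the nearest profiles were INPPL1 (0.94), GABARAPL1 (0.91) and RTL8B (0.90), and for WWTR1 PYGB (0.97), TBC1D14 (0.95) and BCHE (0.95). TEAD1 had RTL6 (0.98), C1D (0.98) and GPRASP2 (0.98), TEAD2 had EDA2R (0.95), AOX1 (0.95) and TNS2 (0.95), TEAD3 had ACVR2A (0.96), BCAR1 (0.96) and RPS26 (0.95), and TEAD4 had H1F0 (0.96), ALDH6A1 (0.94) and ZMYM3 (0.91). With 9 points and so many genes, high coefficients can be found for any profile.

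SK-Mel 28 and SK-Mel 24 are the only lines with the same tissue label. They shared EMEM but had 10% and 15% serum, so the line and its serum cannot be told apart in what follows. Of the 10 genes, 5 were called lower in SK-Mel 28 and 0 higher (edgeR), where 16.5% of all genes tested were called lower and 15.5% higher. DESeq2 also called 0 higher, and 2 genes, WWTR1 and TEAD1, were higher at an unadjusted p under 0.05. SK-Mel 24 exceeded SK-Mel 28 by 9.79 ± 0.73 log2 units for VGLL3 (adjusted p = 7.33e-11), 4.00 ± 0.35 for CYR61 (adjusted p = 1.14e-09) and 1.78 ± 0.46 for CTGF (adjusted p = 0.00234), and by 1.39 ± 0.16 and 1.16 ± 0.27 for TEAD3 and TEAD2. YAP1 was lower by less than 2-fold, the fitted excess of SK-Mel 24 being 0.60 ± 0.23 (adjusted p = 0.0309). The line with more coactivator RNA in sum, SK-Mel 28 at 396 against 332 TPM, was thus the one with less CTGF and CYR61. A test against a 2-fold change itself called 3 of the 5.

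Each line was also set against the mean of the other 8. This is a mean of log2 levels, so a line where a gene is nearly absent pulls it down. A line called higher need not be near the top. For VGLL3, nearly absent from SK-Mel 28 and HepG2, A549 and Caco2 were called higher. Yet SK-Mel 24 exceeded these by 1.49 ± 0.44 and 1.52 ± 0.44 (edgeR), and BJ was called over both too. BJ had 6 of the 10 called higher (TEAD1, TEAD2, TEAD3, VGLL3, CTGF and CYR61) with a background of 20.1%, and 0 lower, with a background of 13.1%. By DESeq2 0 were lower as well, and 2, WWTR1 and TEAD4, were lower at an unadjusted p under 0.05 (edgeR). U2-OS had 5 higher (TEAD1, TEAD2, TEAD4, CTGF and CYR61; background 25.3%) and 1 lower (WWTR1; background 10.9%). Without HepG2 among the others, U2-OS kept 3 calls higher.

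RT4 had the opposite balance, with 5 lower (WWTR1, TEAD2, TEAD4, CTGF and CYR61; background 14.2%) and 2 higher (TEAD3 and VGLL1; background 18.6%). HepG2 had 4 lower (YAP1, TEAD1, VGLL3 and CYR61; background 23.5%) and 3 higher (TEAD2, TEAD3 and TEAD4; background 25.8%). In Caco2 5 were higher (TEAD3, TEAD4, VGLL1, VGLL3 and CYR61; background 19.8%) and 3 lower (WWTR1, TEAD2 and CTGF; background 13.9%). U251 had 3 higher (WWTR1, CTGF and CYR61; background 15.0%) and 3 lower (TEAD2, TEAD3 and TEAD4; background 11.6%).

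Of the remaining lines, A549 had 3 higher (WWTR1, TEAD2 and VGLL3; background 18.4%) and 2 lower (TEAD3 and CYR61; background 10.8%). SK-Mel 24 had 3 higher (WWTR1, VGLL3 and CTGF; background 19.0%) and 1 lower (TEAD3; background 11.2%). SK-Mel 28 had 2 higher (WWTR1 and TEAD1; background 20.3%) and 3 lower (TEAD3, VGLL3 and CYR61; background 13.4%). With 10 genes, counts of 1 to 3 are close to what these backgrounds give.

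The transcripts of YAP1, TEAD3 and TEAD4 were split differently in HepG2. The share of TPM in transcripts without the YAP1 exon shown above was 63.5%, 53.3% and 38.2% in the HepG2 libraries. In the other 24 libraries it was 8.88% to 28.8%, with no overlap. How often transcript shares of other genes separate HepG2 in this way is not given here. The lack of overlap therefore sets nothing apart about YAP1, TEAD3 or TEAD4. The exon is 114 bases long, a multiple of the codon length, so leaving it out keeps the reading frame and gives a YAP with a single WW domain. By contrast YAP1 exon 6, of 48 bases, was left out of 3.73% to 41.0% of the TPM in HepG2 and 10.4% to 44.4% elsewhere, which overlap.

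For TEAD3, 2 transcripts were listed. The one without exons 3 and 4 is annotated for nonsense-mediated decay, and it took 74.0%, 96.6% and 94.9% of the TEAD3 TPM in HepG2. It took 0% to 37.9% in the other 24 libraries. The highest of those were uneven within a line: Caco2 had 36.9%, 34.4% and 0.710%, and RT4 37.9%, 0% and 0.0186%. Most of the TEAD3 level in HepG2, called higher above, was thus assigned to that transcript, and protein-coding transcripts alone put TEAD3 at 5.27% of the HepG2 TEAD sum in place of 29.3%.

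For TEAD4, the only listed transcript without exon 3 took 84.3%, 78.5% and 86.1% of the TPM that could be assigned in HepG2, against 0% to 52.6% elsewhere, where libraries of a line differed widely. A short TEAD4 form that lacks this exon and part of the DNA-binding domain is known. In HepG2 1400 estimated counts lacked the exon and 364 held it. These shares come from the authors' software, which divides reads among transcripts by estimate, and they have no test here. HepG2 is also the line with the high mitochondrial share, and the part of that in the transcript shares was not tested. The highest share for YAP1 was in the library with 71.1% mitochondrial counts, while the highest for TEAD3 and TEAD4 were in the other libraries.

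**Figure D4:**
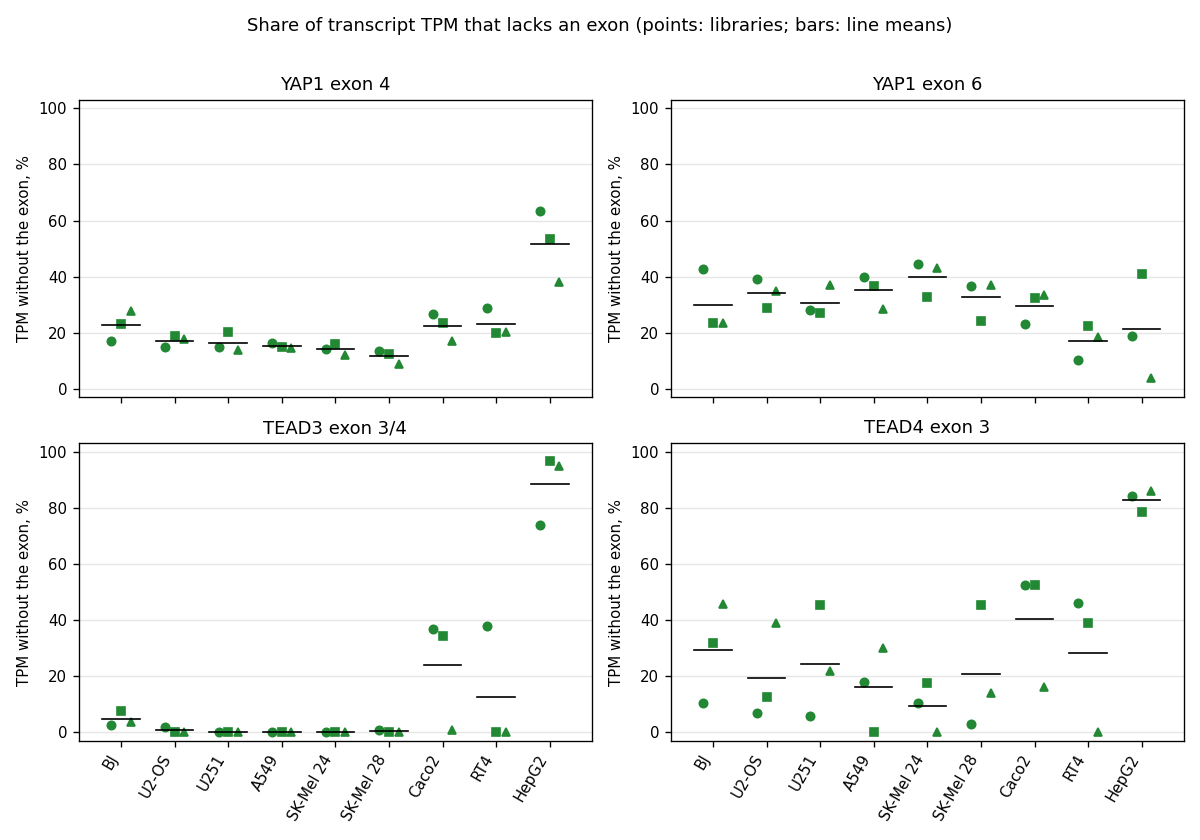
Percentage of transcript TPM that lacks an exon, by library (circles, squares and triangles for libraries 1, 2 and 3) with line means as bars, for YAP1 exon 4, YAP1 exon 6, TEAD3 exons 3 and 4, and TEAD4 exon 3. The 3 HepG2 libraries lie above the other 24 in every panel except that of YAP1 exon 6. The exons were shown for that separation, and its frequency among other genes is not given.

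Genes around the effectors were counted from lists. All 20 genes of a list of YAP and TEAD targets other than CTGF and CYR61 passed the F test. Against the mean of the other lines, 15 were called higher (background 20.1%) and 1 lower (13.1%) in BJ, with a median log2 difference of 2.39 against -0.05 over all genes tested. U251 had 13 higher (background 15.0%) and 0 lower (11.6%), with a median of 1.48. By DESeq2 0 were lower in U251 as well, by edgeR 0 were lower at an unadjusted p under 0.05, and without HepG2 among the others 1 was called lower. A549 had 11 higher (background 18.4%) and 2 lower (10.8%), with a median of 1.20. At the other end, HepG2 had 1 higher (background 25.8%) and 13 lower (23.5%), with a median of -2.22 against -0.17 over all genes. RT4 had 6 higher (18.6%) and 12 lower (14.2%), with a median of -1.25, and SK-Mel 28 had 1 higher (20.3%; 2 without the low-count filter) and 10 lower (13.4%), with a median of -1.33.

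U2-OS had 7 higher (background 25.3%) and 4 lower (10.9%), SK-Mel 24 had 5 higher (19.0%) and 2 lower (11.2%; 4 without HepG2), and Caco2 had 7 higher (19.8%) and 8 lower (13.9%). The lines with most CTGF and CYR61, BJ and U251, were thus also those with most target genes called higher. A549 departed from that order, since its CTGF and CYR61 were 55.4 and 41.8 TPM. Compared directly, SK-Mel 28 had 2 target genes higher (background 15.5%) and 13 lower (16.5%) than SK-Mel 24 (median -1.94).

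**Figure D5:**
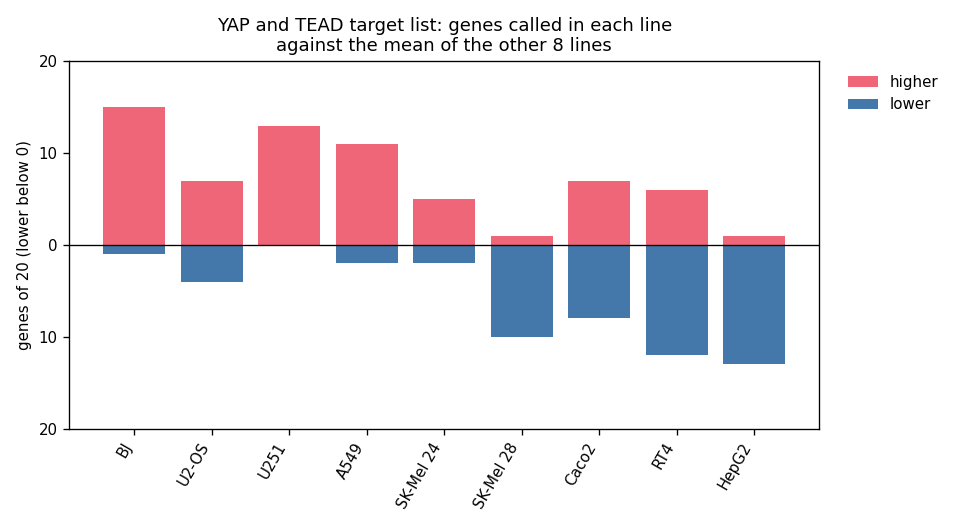
Number of the 20 listed YAP and TEAD target genes called higher (above 0) and lower (below 0) in each line against the mean of the other 8 lines, by adjusted p under 0.05 and at least 2-fold (edgeR). BJ, U251, A549, U2-OS and SK-Mel 24 have more genes higher than lower, and HepG2, RT4, SK-Mel 28 and, by 1 gene, Caco2 more lower than higher.

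The 4 target genes with the widest range of line means on the log2(CPM + 1) scale did not move as one. AXL, a receptor kinase, was at 418 ± 61.6 TPM in U251 (SD, n = 3), 192 ± 6.83 in SK-Mel 24 and 0.454 ± 0.26 in SK-Mel 28, a step of -9.34 ± 0.53 (log2) between the SK-Mel lines (adjusted p = 4.97e-13, edgeR). NT5E, the surface enzyme CD73, went the other way between those lines, at 193 ± 16.5 and 553 ± 56.7 TPM (1.70 ± 0.38, adjusted p = 0.00063), and was at 0.120 ± 0.08 in U2-OS. IGFBP3, a binding protein of insulin-like growth factors, had 1128 ± 592 TPM in BJ and 457 ± 91.4 in RT4, but 0.126 ± 0.11 in U2-OS and 0.099 ± 0.06 in Caco2. MYOF, a membrane repair protein, was at 309 ± 28.5 TPM in BJ and 171 ± 53.7 in RT4 and at 0.099 ± 0.07 in HepG2. RT4, with almost no CTGF, thus held IGFBP3 at 385 TPM or more and MYOF at 119 TPM or more in each library.

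Upstream, all 12 genes of the kinase module and all 17 upstream regulators passed the F test. In each line but HepG2, at most 2 of the 12 kinase module genes were called, both directions together, where 15.0% to 25.3% of all genes were called higher and 10.8% to 14.2% lower. HepG2 had 5 lower (background 23.5%) and 0 higher (25.8%), with a median log2 difference of -0.49 against -0.17 over all genes. By DESeq2 1 was higher there, and TAOK2 was higher at an unadjusted p under 0.05 (edgeR). LATS2, a kinase that phosphorylates YAP and is also counted among the targets, was at 25.2 ± 4.62 TPM (SD, n = 3) in BJ, 17.8 ± 5.54 in Caco2 and 3.12 ± 0.22 in RT4. MOB1B, a LATS activator, was highest in SK-Mel 28, at 25.6 ± 5.50 TPM, and STK38L, a LATS relative, in U251, at 29.3 ± 7.27. TAOK3, a kinase upstream of MST, had 56.1 ± 2.57 TPM in SK-Mel 28 against 5.42 ± 0.57 in U2-OS.

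Of the 17 upstream regulators, 11 were lower in HepG2 (background 23.5%) and 1 higher (25.8%), with a median of -1.26. AMOTL2 and PTPN14 are in this list and also in that of the targets, so the counts of these lists are not separate. U2-OS had 1 lower (10.9%; 2 by DESeq2) and 7 higher (25.3%), with a median of 0.97 against 0.13 over all genes, and BJ had 2 lower (13.1%) and 7 higher (20.1%), with a median of 0.72. WWC1 (KIBRA), an activator of LATS, was at 80.3 ± 3.56 TPM in Caco2 (SD, n = 3), 50.9 ± 10.4 in RT4 and 1.32 ± 1.10 in BJ. FRMD6, a FERM-domain regulator, was at 205 ± 102 TPM in U2-OS and 188 ± 17.1 in BJ, and at its lowest in HepG2 (0.262 ± 0.13), A549 (6.81 ± 1.15) and Caco2 (10.0 ± 3.44). AMOT, a junction protein that binds YAP, reached 31.8 ± 3.64 TPM in SK-Mel 28 but only 0.020 ± 0.01 in A549. Its relative AMOTL1 ranged from 42.3 ± 1.21 TPM in SK-Mel 24 to 0.034 ± 0.04 in HepG2.

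Of the 6 other VGLL and CCN genes, all passed the F test. NOV (CCN3), a relative of CTGF, was highest in U2-OS, at 20.5 ± 10.5 TPM (SD, n = 3), and next in BJ, at 11.7 ± 2.71, while RT4 had 0.108 ± 0.01, Caco2 0.037 ± 0.02 and HepG2 no count. WISP2 was at 15.4 ± 7.80 TPM in A549 and at 2.28 TPM or less in every library of the other lines. WISP3 was at 15.4 ± 1.47 TPM in RT4 and under 1 TPM in every other library. These 3 relatives thus had different highest lines by TPM.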

How the data were processed

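Poly-A RNA of 27 libraries (9 lines, 3 each) was analysed from the authors' transcript tables. Per the file headers, these hold estimated counts and TPM for 176241 transcripts; CASAVA 1.8, kallisto 0.43.1 and GRCh 38 appear in the submitters' processing notes. The sources used here give neither the transcript release nor a strand setting. The deposited TPM are corrected for effective length and sum to the same total in each library. Of the transcripts, 159887 matched GENCODE 29; the other 9.28% were left out. Gene values are sums over transcripts, with counts then rounded.

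Groups are the cell line labels, and libraries are numbered in accession order. The genes and gene lists were chosen with earlier results of these data known. Counts were fitted by quasi-likelihood in edgeR 4.0.16 under R 4.3.3 (robust, TMM, filterByExpr, 1 coefficient per line; 17220 genes; biological coefficient of variation 24.23%), and called at a Benjamini-Hochberg adjusted p under 0.05 and at least 2-fold. The fit was tested on simulated data. Alternatives used DESeq2 1.42.0, no low-count filter, no mitochondrial genes, protein-coding transcripts, the number after P in the titles as a covariate, a test against 2-fold, libraries left out, no HepG2 and, added after seeing the data, length-scaled counts. Exon shares are TPM of transcripts that lack an exon, out of those that span it. Named besides the 10 genes were, per list, the 4 with the widest range over line means among those at 10 TPM or more in some line, and, per gene, the 3 nearest profiles by Pearson coefficient. With 3 libraries against 3, an exact permutation p cannot go below 0.1, so shares have no test. Floors of 3 counts cover counting error only.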

Additional observations from a re-analysis of the deposited data

How the results depend on the processing

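Of 34 results with a comparison, tried under alternatives that kept all replicates, all but 9 of 250 values kept their direction and side of the threshold, as did all but 3 of 918 values with 1 library left out. With a test against a 2-fold change itself, called YAP1 pairs went from 6 to 2, genes higher in SK-Mel 28 against the other 8 lines from 2 to 1, genes higher in U2-OS from 5 to 3, and genes lower in SK-Mel 28 against SK-Mel 24 from 5 to 3. Without HepG2, SK-Mel 28 had 1 gene higher, U2-OS 3 higher and BJ 1 lower in place of 0; length-scaled counts also gave 1 lower in BJ. The number of genes lowest in HepG2 went from 5 to 2 with TPM rescaled without mitochondrial transcripts. Leaving out 1 library gave 5 to 10 called YAP1 pairs (10 without the second Caco2 library), 0 to 1 genes higher in SK-Mel 28 than in SK-Mel 24 (1 without the second SK-Mel 24 library) and 3 to 5 genes lowest in HepG2 (3 without the first HepG2 library). Without HepG2, target genes lower in SK-Mel 24 went from 2 to 4 and in U251 from 0 to 1, and without the low-count filter or with protein-coding transcripts alone those higher in SK-Mel 28 went from 1 to 2; by DESeq2 upstream regulators lower in U2-OS went from 1 to 2 and kinase genes higher in HepG2 from 0 to 1. Among shares of coactivators and TEAD factors, 57 values moved by more than the SD between libraries, most of them when estimated counts replaced TPM. The cause was not tested. No paired analysis was possible because replicate numbers were given in accession order and pair no libraries across lines. Counts limit VGLL3 in SK-Mel 28 and HepG2, TEAD2 and CTGF in RT4, and CTGF in Caco2, where few reads per library carry the value.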
